A study of Mus musculus with 6 samples.

Results

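The 10 genes described here are *Trp53*, which encodes the transcription factor p53, and 9 genes known as its targets: *Cdkn1a*, *Ccng1*, *Mdm2*, *Bax*, *Bbc3*, *Pmaip1*, *Phlda3*, *Trp53inp1* and *Sesn1*. They were chosen by name, as members of the p53 and apoptosis pathway, and all 10 were found among the 26437 genes of the expression table. RNA-seq was performed on E10 mouse frontal head tissue, which holds both optic vesicles together with facial mesenchyme, ectoderm and adjoining forebrain. The wild-type group and the *Rdh10* KO group had 3 libraries each, and each library came from a pool of 3 embryos, so 9 embryos stand behind each group. The *Rdh10* KO embryos were homozygous for a null allele of the retinol dehydrogenase gene that makes the first step of retinoic acid (RA) synthesis, and they lack RA in the whole head. They came from matings of heterozygotes in a stock of mixed Black Swiss and C57BL/6 ancestry that is outbred, so neither group is of 1 strain, and no treatment was given. The comparison asks how mRNA levels of p53 and its targets differ when RA is missing.

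p53 is kept low in unstressed cells by MDM2, the ubiquitin ligase that marks it for destruction. DNA damage, replication stress or disturbed ribosome assembly stabilises the protein, and most of this control acts on the protein rather than on *Trp53* mRNA. Stabilised p53 then turns on genes that halt the cell cycle, genes that restrain growth signalling and oxidative damage, and genes that open the mitochondrial path to apoptosis. It also turns on *Mdm2*, which closes the loop. In embryos, excess p53 activity is known to disturb development of the face and eye.

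Libraries held between 16392777 and 27101025 reads on genes. Values are normalized counts, that is whole reads divided by 1 scaling factor per library, and they are not per length unless stated. *Rdh10* itself stood at 399, 342 and 381 in wild-type and at 183, 142 and 181 in *Rdh10* KO libraries, a log2 difference of -1.155 (adjusted p = 7.35e-05, limma), in the direction of the labels. Markers of optic vesicle, forebrain, facial mesenchyme and surface ectoderm were all detected, as were those of embryonic blood, endothelium and macrophages, and no marker was at 0 in every library. *Rdh10* KO libraries differed more among themselves than wild-type ones: chi-square per degree of freedom was 9.4 to 13 against 2.38 to 4.5. The share of reads on mitochondrial genes was lowest in *Rdh10* KO replicate 3, at 0.949%, against 1.45 and 1.49% in the other *Rdh10* KO libraries and 1.64 to 1.9% in wild-type. In bulk tissue, a change in the number of cells of a type and a change in RNA per cell cannot be told apart.

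The members did not move as a group. *Cdkn1a*, *Bbc3* and *Ccng1* increased in *Rdh10* KO tissue, *Bax* decreased, and the other 6 did not pass the test, which was limma across all 22921 genes tested with an adjusted p under 0.05. So 3 of 10 increased, beside 10.3% of all genes tested, and 1 of 10 decreased, beside 9.12%. Over all genes these shares stand for 2360 increased and 2091 decreased genes, and with a GC and length trend removed they became 1984 and 2861. All members had a mean above 100 normalized counts, and among the 11218 genes tested at that level 18.2% increased and 17.1% decreased. *Cdkn1a* was the only member past the log2 cut-off of 0.85 that the study used, which 2.41% of all genes tested passed upward. Every *Rdh10* KO value lay above every wild-type value for 3 members, beside 17.6% of all genes tested, and below for 2 (*Bax* and *Trp53*), beside 17.0%. These shares without overlap were not computed for genes with a mean above 100, the level of the members. The median log2 fold change of the members was 0.023, and that of all genes tested was 0.0036.

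**Figure D1:**
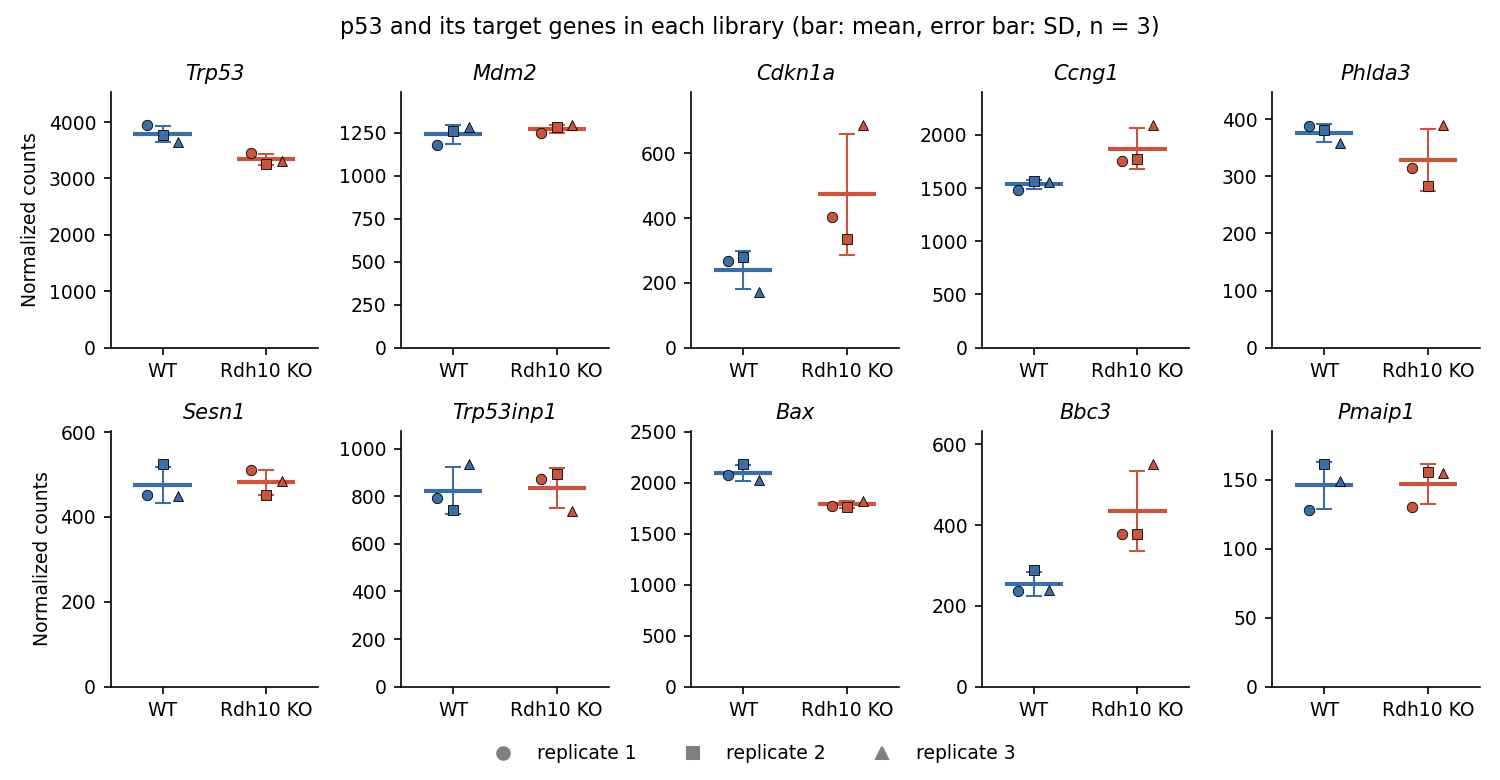
Normalized counts of each of the 10 members (vertical axis, from 0) in the 3 wild-type and 3 *Rdh10* KO libraries, with points for libraries, bars for means and error bars for SD. *Cdkn1a*, *Bbc3* and *Ccng1* lie higher in all *Rdh10* KO libraries, with replicate 3 on top, *Bax* and *Trp53* lie lower, and the other 5 overlap.

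Of the upstream pair, *Trp53* (ENSMUSG00000059552.13, chromosome 11, 69580359 to 69591873, plus strand) was the most abundant member by normalized counts. Its values were 3942, 3776 and 3655 in wild-type and 3448, 3264 and 3308 in *Rdh10* KO libraries. All 3 *Rdh10* KO libraries were below all wild-type ones, at 88.1% of the wild-type mean, yet the gene did not pass: the log2 difference was -0.182 (95% interval -0.322 to -0.0423, adjusted p = 0.0663). It passed in 4 of 13 other settings run on all 6 libraries, with an adjusted p of 0.0374 by DESeq2 and of 0.0157 after a GC and length trend was removed, within a range of 0.0157 to 0.216 over these settings.

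*Mdm2* (ENSMUSG00000020184.14, chromosome 10, 117688875 to 117710758, minus strand) had values of 1176, 1263 and 1283 in wild-type and of 1249, 1281 and 1293 in *Rdh10* KO libraries. The groups overlap almost completely. The log2 difference was 0.039 with a 95% interval of -0.121 to 0.199 (adjusted p = 0.773), an interval that does not reach the size seen for *Cdkn1a* or *Bbc3*. *Mdm2* is both the inhibitor and one of the best known targets of p53.

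Among the cell cycle targets, *Cdkn1a* (ENSMUSG00000023067.13, chromosome 17, 29090976 to 29100727, plus strand) encodes p21, the inhibitor of cyclin-dependent kinases that carries out p53-dependent arrest. Wild-type libraries held 267, 278 and 171 normalized counts, and *Rdh10* KO libraries 402, 334 and 686. The lowest *Rdh10* KO library was above the highest wild-type library, and *Rdh10* KO replicate 3 stood well above the other 5. Means were 238.8 ± 58.85 (SD, n = 3) and 473.8 ± 186.8 (SD, n = 3), or 198.4% of wild-type. The log2 fold change was 0.952 (SE 0.23, 95% interval 0.457 to 1.45, adjusted p = 0.00979), and the exact two-sided permutation test gave 0.1, the smallest p it can give with 3 against 3. These values rest on 182 to 583 reads per library.

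The size of the *Cdkn1a* change depended on single libraries. Without *Rdh10* KO replicate 3 the log2 fold change was 0.65 with an adjusted p of 0.138, and that library also had the lowest mitochondrial share, 0.949%. Without *Rdh10* KO replicate 1 the adjusted p was 0.0555, and without *Rdh10* KO replicate 2 the gene still passed at 0.0496. Without wild-type replicates 1, 2 and 3 the adjusted p was 0.1345, 0.109 and 0.165, and the log2 fold change was 1.049, 1.078 and 0.728. The part of RNA quality in the result was not tested. On the minus strand the gene overlaps AC167363.2, and since strand use in counting is not given in the sources used here, reads of both cannot be told apart.

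The *Cdkn1a* promoter is shown because it holds the only p53 response element found in the start-site windows of the members. Windows of 250 bases before and 50 after the start (RefSeq, GRCm38.p6) were given for 8 of the 10 members, 12 windows in all. A p53 response element, counted as 20 bases of the decameric consensus in tandem with no spacer, both 4-base cores intact and at most 2 mismatches, occurred in 1 of the 12 member windows and in 52 of all 32851 promoters (0.158%). The consensus reads the same on both strands. The site of *Cdkn1a*, in capitals below, has 1 mismatch and ends 31 bases before the upstream start at 29090979. It lies much farther from the gene's other start at 29093769.
Cdkn1a, chr17:29090729-29090978, plus strand, 250 bases before the upstream start: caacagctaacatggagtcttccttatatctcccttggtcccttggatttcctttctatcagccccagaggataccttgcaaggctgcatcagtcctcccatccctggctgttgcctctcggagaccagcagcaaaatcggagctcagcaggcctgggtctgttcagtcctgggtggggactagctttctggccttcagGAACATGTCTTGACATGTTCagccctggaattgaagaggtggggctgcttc

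The same window of *Cdkn1a* also holds CATGNNNNNNCATG, a palindrome that lies within the p53 element and is found in 0.712% of all promoters. The window at the gene's other start, 29093769, holds no element. A retinoic acid response element, counted as a direct repeat of the half-site AGGTCA (G allowed as the first base and T as the third) with a spacer of 1, 2 or 5 bases on either strand, occurred in no member window and in 0.588% of all promoters. Elements outside these windows were not searched, among them the known one in the first intron of *Mdm2*. A match is a description of letters and says nothing of whether p53 is bound there.

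Of 35 other p53 targets, 28 had windows, and 3 of these held an element by the same count. They are shown, with the element in capitals, because genes that share the element had different values in the RNA-seq. The element of *Gtse1* lies across the start.
Rps27l, chr9:66946281-66946330, plus strand, 1 mismatch: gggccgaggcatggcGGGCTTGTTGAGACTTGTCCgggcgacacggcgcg
Ckap2, chr8:22185988-22186037, minus strand, 2 mismatches: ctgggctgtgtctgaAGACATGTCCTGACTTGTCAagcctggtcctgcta
Gtse1, chr15:85859930-85859964, plus strand, 1 mismatch: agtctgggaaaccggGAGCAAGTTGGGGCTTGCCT

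In contrast to *Cdkn1a*, *Rps27l*, which encodes a ribosomal protein S27-like protein, decreased from 4147, 4437 and 5160 to 3573, 3433 and 2972 (log2 -0.46, adjusted p = 0.00269). *Ckap2*, a spindle protein gene, stood at 1543, 1552 and 1645 in wild-type and at 1398, 1358 and 1437 in *Rdh10* KO, without overlap, and did not pass (log2 -0.177, 95% interval -0.331 to -0.0227, adjusted p = 0.107). *Gtse1*, whose product binds microtubules and restrains p53, gave a log2 difference of -0.017 with an interval of -0.229 to 0.194. So of the 4 genes with an element in the window 1 increased and 1 decreased. Among all genes tested with a mean above 100, 18.2% increased and 17.1% decreased. With 4 genes, the counts cannot be told apart from these shares.

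The 5 genes whose profile over the 6 libraries was most like that of *Cdkn1a*, among 11217 others with a mean above 100, were *Pold4*, *Sdk1*, *Col1a1*, *Rras* and *Adssl1*. Likeness was the root mean square difference of log2 values after each gene was centred on its wild-type mean, and it was 0.124 for *Pold4*, 0.138 for *Sdk1*, 0.164 for *Col1a1*, 0.167 for *Rras* and 0.171 for *Adssl1*. None of them belongs to a pathway list used here. Those lists hold only 110 of the 22921 genes tested, so a list gene among 5 would be rare in any case. *Col1a1*, a collagen gene, ran from 1075, 1007 and 786 in wild-type to 1482, 1396 and 2282 in *Rdh10* KO, so like *Cdkn1a* it was lowest in wild-type replicate 3 and highest in *Rdh10* KO replicate 3.

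*Ccng1* (ENSMUSG00000020326.7, chromosome 11, 40748552 to 40755311, minus strand) encodes cyclin G1, which recruits a phosphatase that activates MDM2. Wild-type values were 1484, 1569 and 1552 and *Rdh10* KO values 1755, 1770 and 2090. The wild-type libraries lie close together and all 3 *Rdh10* KO libraries are above them, replicate 3 again highest. The increase was modest, from 1535 ± 44.83 to 1871 ± 189 (SD, n = 3), a log2 fold change of 0.281 (95% interval 0.106 to 0.456, adjusted p = 0.0257). It passed without *Rdh10* KO replicate 1 and missed the threshold without each of the other 5 libraries, with an adjusted p of up to 0.164 without wild-type replicate 1 and a log2 fold change of 0.199 without *Rdh10* KO replicate 3.

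*Phlda3* (ENSMUSG00000041801.5, chromosome 1, 135766119 to 135769136, plus strand) encodes a small pleckstrin-homology protein that competes with AKT for membrane lipid. Its values were 389, 381 and 359 in wild-type and 315, 284 and 389 in *Rdh10* KO libraries. The first 2 *Rdh10* KO replicates lay below wild-type and the third was level with its top, so the groups overlap. The log2 difference was -0.203 (95% interval -0.47 to 0.0635, adjusted p = 0.301).

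The stress targets gave log2 differences near 0. *Sesn1* (ENSMUSG00000038332.12, chromosome 10, 41809935 to 41908424, plus strand), a sestrin that restrains mTORC1, stood at 451, 524 and 449 in wild-type and at 511, 451 and 485 in *Rdh10* KO. The log2 difference was 0.024 with a 95% interval of -0.195 to 0.243. *Sesn1* overlaps 9930024M15Rik on the same strand, so reads of both may be mixed.

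*Trp53inp1* (ENSMUSG00000028211.11, chromosome 4, 11156431 to 11174379, plus strand), which encodes a p53-induced nuclear protein, had 791, 743 and 934 in wild-type and 872, 893 and 738 in *Rdh10* KO. Wild-type replicate 3 was the highest library and *Rdh10* KO replicate 3 the lowest, opposite to *Cdkn1a*. The log2 difference was 0.022 (95% interval -0.203 to 0.247, adjusted p = 0.925).

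The apoptosis targets split. *Bbc3* (ENSMUSG00000002083.12, chromosome 7, 16308393 to 16318205, plus strand) encodes PUMA, a BH3-only protein that sets off mitochondrial apoptosis. Its values were 236, 289 and 240 in wild-type and 378, 379 and 551 in *Rdh10* KO libraries. No library of one group reached the other, and the first 2 *Rdh10* KO replicates were nearly equal.

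The mean of *Bbc3* went from 255.1 ± 29.66 to 435.8 ± 99.44 (SD, n = 3), 170.8% of wild-type. The log2 fold change was 0.755 (SE 0.149, 95% interval 0.435 to 1.08, adjusted p = 0.00286). Unlike *Cdkn1a*, *Bbc3* passed without *Rdh10* KO replicate 3, with a log2 fold change of 0.575. It was lost when a wild-type library was left out, with an adjusted p of 0.091 without replicate 1, 0.0531 without replicate 2 and 0.0715 without replicate 3. In all of these fits the direction stayed the same.

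*Bax* (ENSMUSG00000003873.10, chromosome 7, 45461697 to 45466898, minus strand) encodes the protein that permeabilises the outer mitochondrial membrane. It stood at 2075, 2181 and 2027 in wild-type and at 1776, 1761 and 1826 in *Rdh10* KO. All 3 *Rdh10* KO libraries were lower, and both groups were tight. The decrease was small, from 2094 ± 78.79 to 1788 ± 33.99 (SD, n = 3), a log2 fold change of -0.228 (95% interval -0.375 to -0.0804, adjusted p = 0.0312).

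The *Bax* call held in 9 of 13 other settings run on all 6 libraries, against 11 for *Cdkn1a* and *Ccng1* and 12 for *Bbc3*. After a GC and length trend was removed the log2 fold change was -0.144 with an adjusted p of 0.142, within a range of 0.0139 to 0.176 over the 13. Without *Rdh10* KO replicate 3 the gene still passed, and without any other single library it did not: the adjusted p was 0.087, 0.1185 and 0.0611 without wild-type replicates 1, 2 and 3, and 0.0601 and 0.0659 without *Rdh10* KO replicates 1 and 2. *Bax* overlaps Gm45808 on the same strand, so some reads may belong to that gene.

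*Pmaip1* (ENSMUSG00000024521.7, chromosome 18, 66458533 to 66465565, plus strand) encodes NOXA, a BH3-only protein that binds MCL1. It had 128, 161 and 149.5 in wild-type and 130.3, 156 and 155 in *Rdh10* KO libraries. The values overlap throughout, and they rest on 125 to 182 reads. The log2 difference was 0.01 with a 95% interval of -0.325 to 0.346, which leaves room for a change of the size seen for *Ccng1*.

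**Figure D2:**
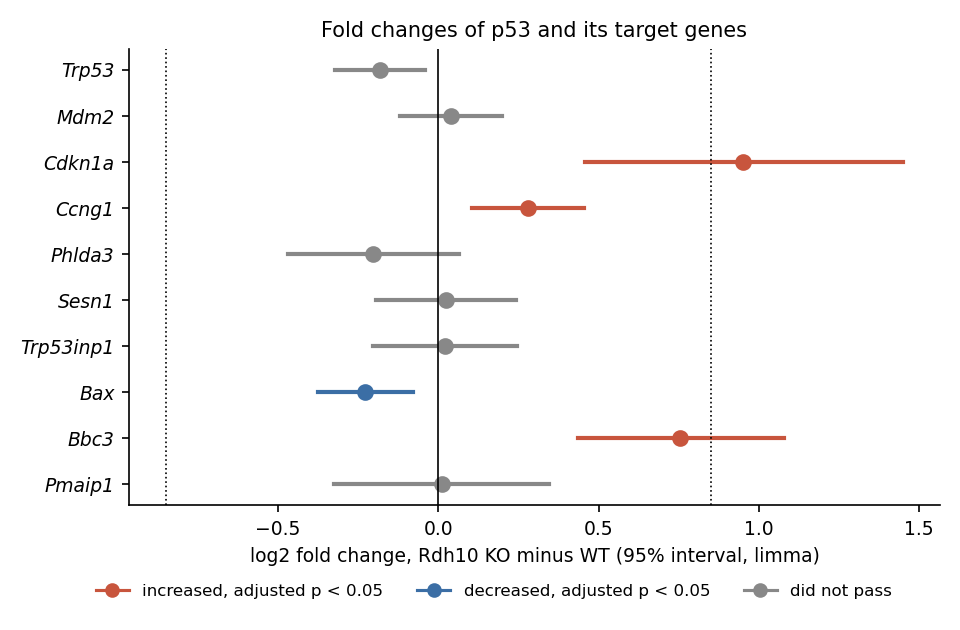
log2 fold change of each member, *Rdh10* KO minus wild-type (horizontal axis), with 95% intervals from limma, dotted lines at -0.85 and 0.85, and red for increased, blue for decreased and grey for genes that did not pass. The interval of *Cdkn1a* spans the cut-off, from 0.457 to 1.45, those of *Bbc3* and *Ccng1* lie above 0, that of *Bax* lies below it, and that of *Trp53* also excludes 0 before adjustment.

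**Figure D3:**
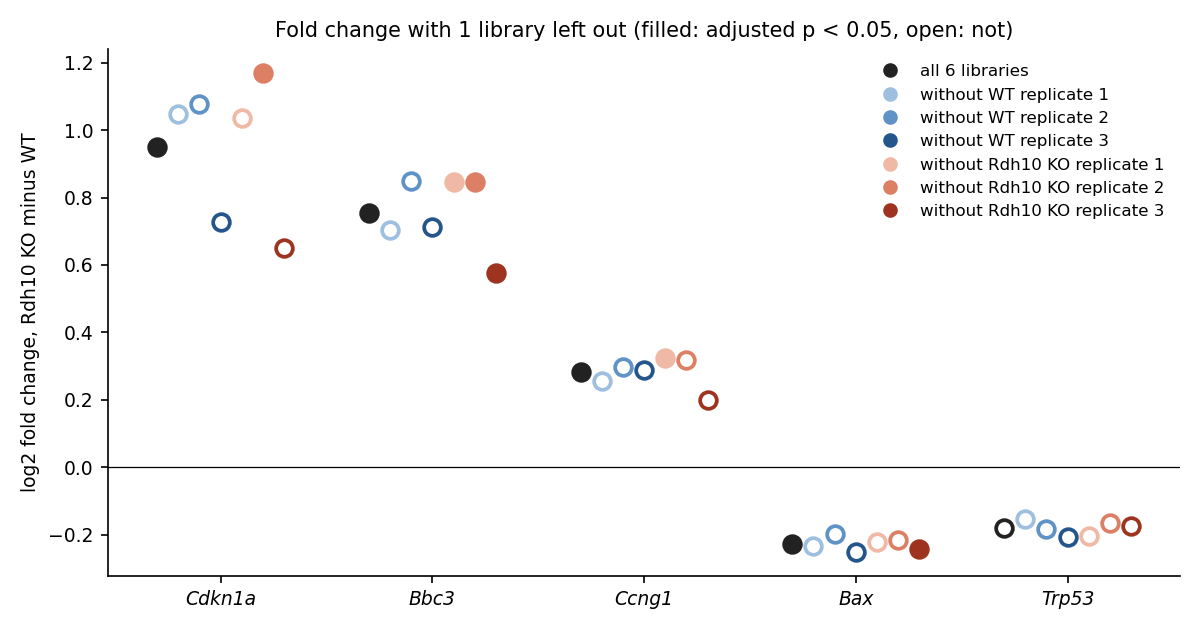
log2 fold change (vertical axis) of the 4 members that passed and of *Trp53*, with all 6 libraries and with each library left out in turn, filled where the adjusted p was under 0.05. The direction holds in every fit, *Cdkn1a* ranges from 0.65 to 1.169, and *Bbc3* keeps the most filled points, 3 of 6.

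Per length, computed as fragments per kilobase of exon, scaled to library depth (FPKM), from the recovered reads, the most abundant member in wild-type was *Bax* at 67.9 ± 2.443 FPKM, followed by *Trp53* at 47.89 ± 1.877 and *Ccng1* at 22.34 ± 0.6085 (SD, n = 3). *Mdm2* at 12.47 FPKM and *Phlda3* at 12.33 FPKM did not differ beyond their spread. Nor did *Trp53inp1* at 6.492 FPKM, *Bbc3* at 6.137 and *Sesn1* at 6.094. *Cdkn1a* at 3.434 FPKM and *Pmaip1* at 2.735 FPKM were the lowest, with overlapping libraries. So mRNA of the arrest gene and of both BH3-only genes was scarce per length beside that of *Bax*, the effector downstream of the BH3-only proteins.

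In *Rdh10* KO tissue the order of the levels changed in the middle. *Bbc3* at 10.55 ± 2.507 FPKM stood beside *Phlda3* at 10.86 ± 1.907 FPKM, within their spread. *Cdkn1a* at 6.865 ± 2.775 FPKM stood beside *Trp53inp1* at 6.61 and *Sesn1* at 6.219 FPKM, again within their spread. *Bax* at 58.24 FPKM remained the most abundant member and *Pmaip1* at 2.764 FPKM the least.

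Ratios of a member to a partner inside each library do not depend on the library's scaling factor, but they can depend on the GC content and length of the genes. The ratio of *Bax* to *Bcl2*, the antiapoptotic gene, was 3.443, 3.192 and 3.262 in wild-type and 2.554, 2.128 and 2.561 in *Rdh10* KO, a log2 difference of -0.455. It was lower in all 3 *Rdh10* KO libraries. *Bcl2* itself did not pass (log2 0.227, 95% interval 0.0207 to 0.433, adjusted p = 0.122). The ratio of *Bax* to *Bcl2l1*, which encodes BCL-XL, was also lower without overlap, by a log2 difference of -0.292. After a GC and length trend was removed, an alternative added after seeing the data, these differences were -0.195 for *Bcl2* and -0.164 for *Bcl2l1*.

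For the p53 loop, the ratio of *Mdm2* to *Trp53* was 0.2985, 0.3345 and 0.3512 in wild-type and 0.3621, 0.3925 and 0.3908 in *Rdh10* KO, a log2 difference of 0.221. It was higher in all 3 *Rdh10* KO libraries. The ratio of *Mdm2* to *Mdm4*, the paralog that blocks p53 without degrading it, was 0.6264, 0.6792 and 0.6282 in wild-type and 0.4911, 0.4957 and 0.5498 in *Rdh10* KO. It was lower in all 3, by a log2 difference of -0.333 (-0.113 after a GC and length trend was removed), and *Mdm4* is the gene of the pair that increased, though not after a GC and length trend was removed (log2 0.104, adjusted p = 0.314).

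The largest ratio change was that of *Sesn1* to *Sesn2*, from 0.8733, 1.047 and 1.013 to 0.4287, 0.3152 and 0.3527, a log2 difference of -1.426. *Ccng1* to *Ccng2* differed by -0.563 without overlap. *Cdkn1a* to *Cdkn1b* overlapped (log2 difference 0.297, exact permutation p = 0.4), since *Cdkn1b*, which encodes p27, also increased. Each of the 6 ratios without overlap had an exact two-sided permutation p of 0.1, the smallest possible, and 0.117 after adjustment over the 7 ratios, so none can pass in this design. No share over all gene pairs was computed. Among single genes tested, 17.6% lay higher and 17.0% lower in *Rdh10* KO without overlap. A ratio also carries the change of its partner, such as that of *Sesn2* (log2 1.45) or *Ccng2* (0.844).

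**Figure D4:**
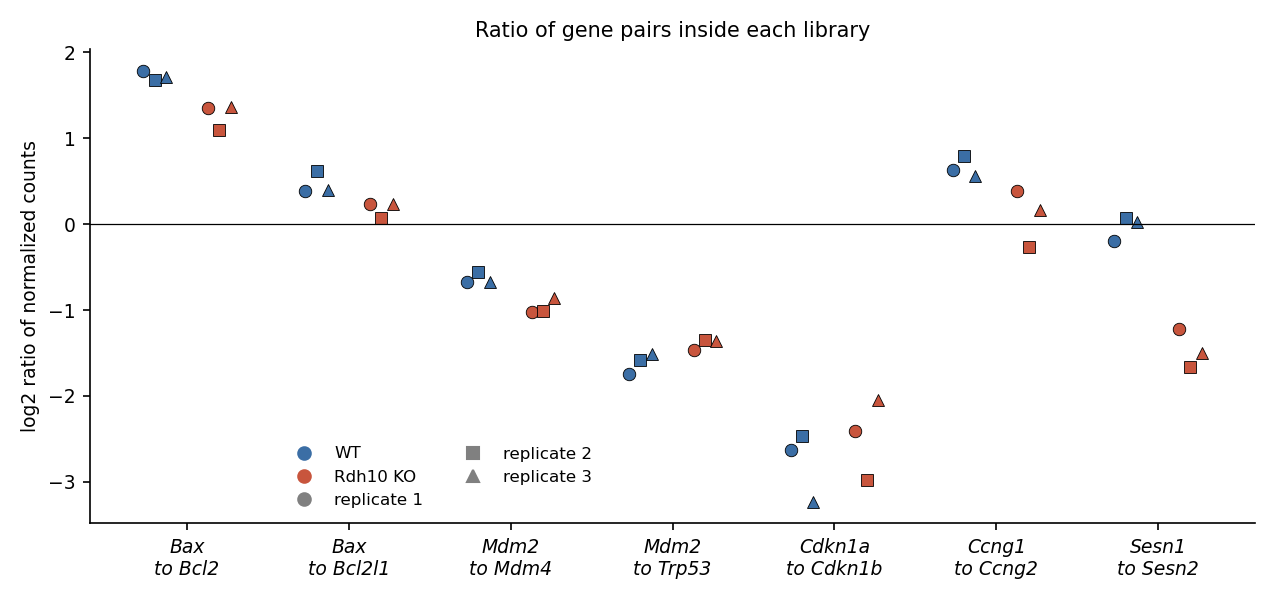
log2 ratio of normalized counts for 7 gene pairs (vertical axis) in each wild-type and *Rdh10* KO library, with marker shapes for replicates. Groups do not overlap for 6 of the 7 pairs, a count for which no share over all gene pairs was computed. *Sesn1* to *Sesn2* shows the widest gap, with a log2 difference of -1.426.

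Several paralogs of the members increased where the member did not. Of 13 tested, 7 increased (53.85%) and 2 decreased (15.38%), and the median log2 fold change was 0.372. For this list and those below, the shares over all genes tested were 10.3% increased and 9.12% decreased. Among genes with a mean above 100 they were 18.2 and 17.1%. *Sesn2*, a sestrin also induced by amino acid and integrated stress signalling, went from 517, 501 and 444 to 1191, 1432 and 1374 (log2 1.45, 95% interval 1.24 to 1.66), while *Sesn3* increased by 0.435 (0.142 and not passing after a GC and length trend was removed) and *Sesn1* did not pass. *Phlda2* increased by 1.389 on the log2 scale, from only 15.3, 13.3 and 23.5 normalized counts, and *Phlda1* by 0.498, beside a *Phlda3* that did not pass.

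*Ccng2*, a cyclin G known as a FOXO target, increased by 0.844 on the log2 scale, *Cdkn1b* by 0.655 and *Mdm4*, as above, by 0.372. *Cdkn1c*, the third inhibitor of the p21 family, did not pass (log2 -0.172, 95% interval -0.395 to 0.0503). *Bok* decreased by 0.847 and *Trp53inp2* by 0.495 on the log2 scale, *Bak1* gave -0.171 (adjusted p = 0.136), and neither *Trp63* nor *Trp73*, the other p53 family genes, passed. Without wild-type replicate 1 the increased count was 4 and without wild-type replicate 2 it was 3, and the decreased count was 1 without each of these and without *Rdh10* KO replicate 2.

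Other p53 targets, a list of 35 that leaves out the members, gave 12 increased and 3 decreased, or 34.3 and 8.57%, with a median log2 fold change of 0.307. The highest was *Eda2r*, a death-domain receptor of the TNF receptor family, which went from 77.8, 101 and 97.8 to 394, 315 and 426 normalized counts (log2 2.032, 95% interval 1.69 to 2.37, adjusted p = 3.06e-06). All 3 *Rdh10* KO libraries lay far above wild-type. *Polk*, a translesion DNA polymerase gene, increased from 171, 175 and 185 to 310.04, 367 and 428 (log2 1.046), and with *Sesn2* these were the 3 past the cut-off. The lists overlap: *Sesn2* and *Apaf1*, both increased, are also counted among the paralogs and the caspase genes. *Ppm1d*, a p53 target that decreased (log2 -0.408), is counted only among the p53 regulators.

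With any library left out, the log2 fold change of *Eda2r* was at least 1.913 and its limma adjusted p at most 0.0231. In the same fits the log2 fold change of *Cdkn1a* was at least 0.65, and it passed in 1 of 6. The lowest of those that passed were *Rps27l*, described above, and *Pidd1*, a caspase-2 platform gene (log2 -0.36, adjusted p = 0.0426). By quantile normalization 9 of the list increased and 4 decreased, and with a GC and length trend removed 10 increased and 4 decreased. Without wild-type replicate 1 or 2 the increased count was 7. The decreased count was at most 1 without any wild-type library or without *Rdh10* KO replicate 2 or 3.

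Regulators of p53 gave 3 increased and 2 decreased of 13 tested (23.08 and 15.38%), with a median of -0.01. *Hipk2*, a kinase that phosphorylates p53, increased by 0.726 on the log2 scale, *Ep300*, an acetyltransferase, by 0.657, and *Mdm4* by 0.372. *Ppm1d*, the phosphatase WIP1 and itself a p53 target, decreased by 0.408 and *Kat5* by 0.24. *Cdkn2a*, which encodes ARF, was at or under 1.11 normalized counts in every library and was not tested. The decreased count was at most 1 without any wild-type library or without *Rdh10* KO replicate 1 or 3.

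In the BCL-2 family apart from the members, 1 of 12 increased and 3 decreased (8.33 and 25.0%). *Hrk*, a BH3-only gene of the nervous system, rose from 15.3, 8.9 and 10.3 to 68.02, 71.5 and 64.7 normalized counts (log2 2.589, 95% interval 1.89 to 3.29, adjusted p = 0.000139). The 3 *Rdh10* KO libraries lay close together, though the wild-type values rest on as few as 8 reads. *Bok*, *Bad* and *Mcl1*, a BAX-like effector, a BH3-only gene and an antiapoptotic gene, decreased by 0.847, 0.632 and 0.32 on the log2 scale, the last named after its value was seen. Without wild-type replicate 1 or 2 the decreased count was 1.

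Of 23 caspases, their cofactors and inhibitors, 3 increased and 7 decreased (13.04 and 30.43%), with a median log2 fold change of -0.14. *Apaf1*, the apoptosome scaffold and a p53 target, increased by 0.418 on the log2 scale, and *Cflar*, which blocks caspase-8, by 0.434, the latter not after a GC and length trend was removed (0.187, adjusted p = 0.25). *Cycs*, which encodes the cytochrome c that APAF1 binds, went from 1309, 1462 and 1417 to 985, 907 and 727 (log2 -0.687), and *Casp8* from 274, 274 and 261 to 188, 182 and 174 (log2 -0.571). The decreased count was 3 without wild-type replicate 1 or 3 and 1 without wild-type replicate 2, and the increased count was 1 without wild-type replicate 1 or 2 or *Rdh10* KO replicate 1 or 2.

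Cell cycle genes that are repressed when p21 is active gave 1 increased and 6 decreased of 20, or 5.0 and 30.0%. Their median log2 fold change was -0.107. *Ccne1*, the cyclin E gene that drives entry into S phase, went from 2010, 2020 and 1977 to 1496, 1302 and 1094 (log2 -0.638, adjusted p = 0.000524), and *Ccne2* decreased by 0.481. *Mki67*, which marks dividing cells, increased by 0.258 (0.058 and not passing after a GC and length trend was removed). With the GC and length trend removed 7 genes of the list decreased and *Mki67*, the 1 increased gene, no longer passed, and with a replicate block 3 decreased and again *Mki67* did not pass. The decreased count was at most 1 without any wild-type library and 3 without *Rdh10* KO replicate 2 or 3. *Mki67* missed the threshold without any 1 of the wild-type libraries or *Rdh10* KO replicate 2 or 3.

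**Figure D5:**
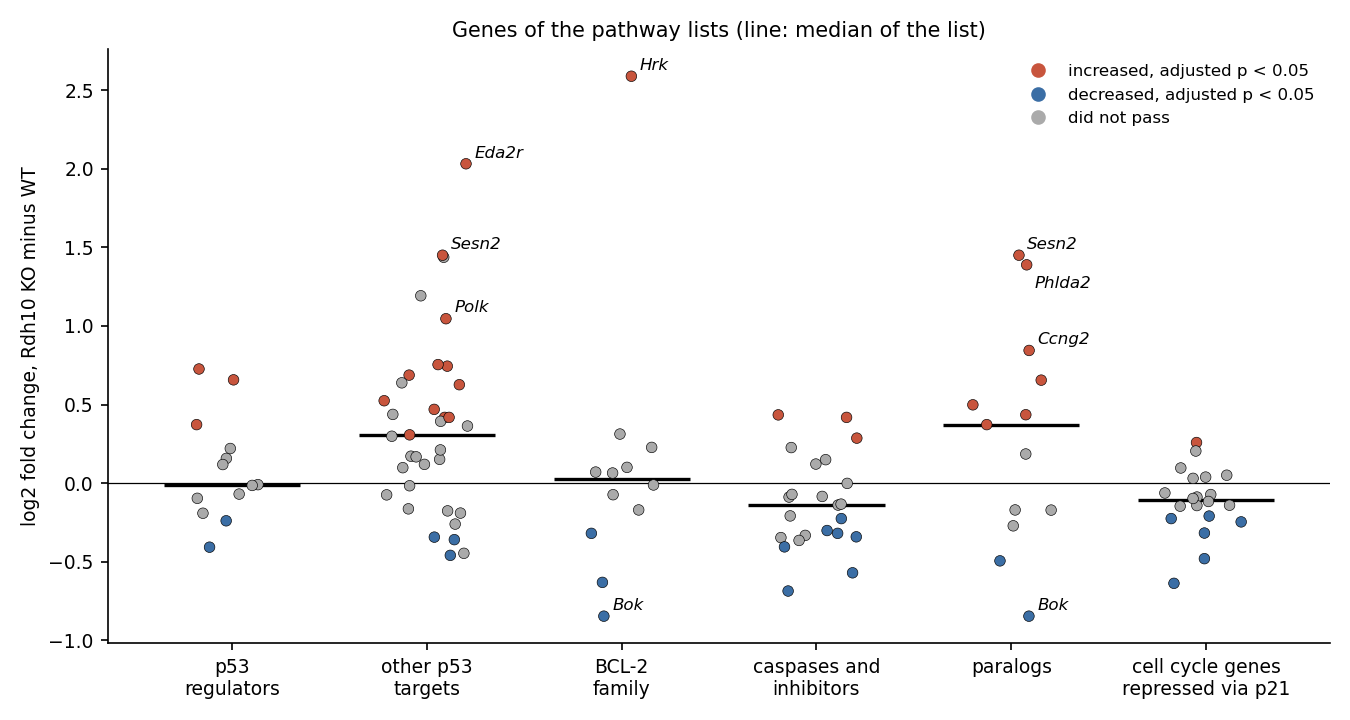
log2 fold change of each tested gene (vertical axis) in 6 lists of the p53 and apoptosis pathway, coloured by direction where the adjusted p was under 0.05, with a line at each list's median. *Hrk* (2.589), *Eda2r* (2.032), *Sesn2* (1.45), *Phlda2* (1.389) and *Polk* (1.046) stand highest among the genes that passed, and *Bok* (-0.847) is the lowest.

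Counted once each, 110 genes of these lists were tested, of which 24 increased and 21 decreased, or 21.8 and 19.1%, with a median of -0.006. These shares lie near the 18.2 and 17.1% of all genes with a mean above 100 and above the 10.3 and 9.12% of all genes tested. The lists were not limited to such a mean, and *Hrk* and *Phlda2* are among the genes below it. After a GC and length trend was removed the counts were 18 increased and 26 decreased, with 18 and 21 of them shared. Of the 5 past the cut-off, all increased. Among all genes tested, 552 increased and 203 decreased past it, and *Bok*, at a log2 of -0.847, fell just short of it. Without wild-type replicate 1 the counts of the lists were 13 increased and 4 decreased, and without wild-type replicate 2 they were 12 and 4. Without wild-type replicate 3 the decreased count of the lists was 8, and without *Rdh10* KO replicate 3 it was 12.

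Markers of other cell types moved in part. Of 6 endothelial markers 3 increased (*Pecam1*, *Kdr* and *Cdh5*, named after their values were seen), while *Cldn5*, also named after its value was seen, did not pass at a log2 of -0.342 (95% interval -0.651 to -0.0326, decreased at an unadjusted p under 0.05). The summed level of the 6 ran from 2950 to 3443 in wild-type and from 4095 to 4318 in *Rdh10* KO. Summed macrophage markers ran from 410.0 to 486.3 and from 353.0 to 443.9. Blood markers summed to 97770 to 131300 in wild-type and to 49470 to 151700 in *Rdh10* KO, where replicate 1 was lowest and replicate 3 highest, and globin reads took 0.2595, 0.5979 and 0.8004% of the 3 *Rdh10* KO libraries. By limma, 0 of 6 forebrain, 0 of 6 blood and 0 of 6 macrophage markers passed, with 1 of each decreased at an unadjusted p under 0.05. The edgeR quasi-likelihood test called 1 forebrain and 1 blood marker decreased, and DESeq2 1 blood marker. Summed optic vesicle markers stood at 3089 in *Rdh10* KO replicate 1, against 4801 to 4809 in the other *Rdh10* KO libraries and 4624 to 4779 in wild-type. Summed forebrain markers stood at 4513 in the same library, against 6549 to 6683 and 5493 to 5975. Mesenchyme markers summed to 10750 to 10860 in wild-type and 10340 to 10640 in *Rdh10* KO, and surface ectoderm markers to 5081 to 5642 and 5077 to 5949. Optic vesicle markers gave 2 increased and 1 decreased of 7, mesenchyme markers 1 and 1 of 7, and surface ectoderm markers 1 increased of 6. The part of these cells in the changes of *Cdkn1a*, *Bbc3*, *Ccng1* and *Bax* was not tested.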

How the data were processed

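RNA-seq was analysed for 3 wild-type and 3 *Rdh10* KO libraries. According to the submitters' notes and the study's methods, libraries were directional after poly(A) selection, and the authors placed reads on mm10 with TopHat and estimated abundance by Expectation–Maximization. The aligner's version and strand use in counting are not given in the sources used here. The table is named for FPKM, but the deposited signal is whole reads divided by 1 median-of-ratios size factor per library: 100% of values in each library came out whole within 0.1 read, and value of 1 read times size factor came to 1.0. FPKM was therefore computed here from recovered reads and GENCODE M21 exon lengths (GRCm38), which held 99.44% of the genes. The design had assumed this unit, and 1 line naming no gene was left out.

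The test was that of limma 3.58.1 (R 4.3.3) with an intensity trend, on log2(value + 0.1) of the 22921 genes of 26437 whose mean exceeded 0.5, with Benjamini–Hochberg adjustment. Fold changes are differences of means on the log2(value + 0.1) scale, where values near 0 weigh heavily, so those of low genes can differ from the ratio of their means. *Dglucy* had a log2 fold change of 1.192 with means of 2.303 in wild-type and 2.773 in *Rdh10* KO. On the recovered whole reads edgeR 4.0.16 (quasi-likelihood) called 2608 genes increased and 2190 decreased. Other settings were DESeq2 1.42.0, the edgeR likelihood ratio test, other pseudocounts, filters and scalings, a GC and length trend removed with mgcv 1.9.3, a replicate block, and each library left out. On data simulated for this comparison, limma recovered 71.5% of 200 changed genes among 22921 and called 1 other. Both figures describe those data only, and recovery at the size of change seen for *Ccng1* and *Bax* was not tested. Python 3.11.15 was used for tables and exact tests.

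The members and lists were chosen with earlier results of these data known. All members are named; of each pathway list, the genes past an adjusted p of 0.05 and the cut-off, and the lowest and highest pair of those passing; the paralogs; both genes of each ratio; the 5 genes most like *Cdkn1a*; *Rdh10*. *Rps27l*, *Ckap2* and *Gtse1* are named for their promoter match. *Cop1* and *Dglucy* were matched through RefSeq synonyms. No labels place the pools in a batch, and p-values measure the spread between pools.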

Additional observations from a re-analysis of the deposited data

How the results depend on the processing

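No member that passed changed direction under any alternative run. The 2360 increased and 2091 decreased genes among all tested became 448 and 197 in limma without the intensity trend, where 0 members passed (3 increased and 1 decreased at an unadjusted p under 0.05) and pathway genes gave 4 and 2. At an unadjusted p under 0.05, 3 members were increased in every setting run and 1 to 3 decreased. No label says whether same-numbered pools are paired. Deviations of same-numbered libraries correlated at -0.03, -0.03 and -0.07 over 15272 genes, which with 3 libraries per group cannot exclude pairing. With a replicate block 1715 genes increased and 1387 decreased, with 1 member increased (*Bbc3*) and 0 decreased (2 at an unadjusted p under 0.05). A mean above 10 and DESeq2 each gave 2 members decreased, the second being *Trp53*. Removing the GC and length trend gave 1984 increased and 2861 decreased genes, against 2360 and 2091, and the member decreased was then *Trp53* in place of *Bax*. *Trp53bp1*, which did not pass (log2 0.118), was then decreased (-0.168, adjusted p = 0.0397). Members near 0 changed sign without passing: *Mdm2* to -0.009 with the GC and length trend removed, with and without the block, *Pmaip1* to -0.082 and *Sesn1* to -0.012 by quantile normalization, and with 1 library left out *Pmaip1* ranged from -0.083 to 0.095, *Sesn1* from -0.018 to 0.097 and *Trp53inp1* from -0.048 to 0.117. With 1 library left out, all genes ranged from 850 to 1983 increased and 427 to 1895 decreased, members from 0 to 2 and 0 to 1, pathway genes from 12 to 22 and 4 to 20, and ratios without overlap from 6 to 7. Why leaving out a wild-type library cost more calls than leaving out a *Rdh10* KO library was not tested. Without the intensity trend the genes past the cut-off were 294 increased and 118 decreased, against 552 and 203, and by the edgeR likelihood ratio test 343 decreased. Limma without the trend left 3 other p53 targets increased, 1 decreased gene each among the BCL-2 family, caspase and paralog lists, 1 increased paralog, and none of the other calls except *Hrk*. With the replicate block 1 other p53 target, 1 p53 regulator and 3 cell cycle genes decreased. p53 regulators gave 1 decreased gene by either edgeR test, with TMM scaling and without a filter, and 4 with the GC and length trend removed. The BCL-2 family gave 2 increased genes by both edgeR tests, DESeq2, a pseudocount of 1 and a mean above 10, and the cell cycle list ranged from 0 to 2 increased. Of the 7 ratio differences, those of *Bax* to *Bcl2*, *Bax* to *Bcl2l1* and *Mdm2* to *Mdm4* moved by over 1.5 times with the GC and length trend removed, as given above, and all 7 kept their direction. With 125 to 182 reads, *Pmaip1* has the widest interval among the members near 0.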
